A study of Mus musculus with 11 samples.

Results

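The EphA receptors are the larger of the 2 classes of Eph receptor tyrosine kinases, and their 9 mouse genes were described across neurons of 3 sensory nuclei of the newborn thalamus. The members Epha1, Epha2, Epha3, Epha4, Epha5, Epha6, Epha7, Epha8 and Epha10 were chosen by gene family, with earlier results of these data known. They were found by symbol, 9 of the 54752 genes listed. Neurons came from the dorsolateral geniculate nucleus (dLG, vision, 4 libraries), the ventral posteromedial nucleus (VPM, facial touch, 4 libraries) and the ventral division of the medial geniculate nucleus (MGv, hearing, 3 libraries). All mice were at postnatal day 0 and of strain ICR/CD-1, with the genotype Gbx2CreER-IRES-EGFP/+::R26lsl-tdTomato/+, and every group carried the same alleles. In this line Cre under the control of Gbx2, a gene of early thalamic neurons, switches on tdTomato after tamoxifen, which the embryos received per the study's methods, and fluorescent cells were sorted from dissected nuclei. Each library pooled 4 brains. Whether libraries came from separate litters was not stated, and p-values measure the spread between these pools only.

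EphA receptors sit on the surface of axons and dendrites and bind ephrin-A ligands, which are held on neighbouring cells by a lipid anchor. Binding commonly makes a growth cone turn away or retract, and opposing gradients of receptors and ligands help to order axons from the eye to its targets and from the thalamus to the cortex. Signals also run backwards through the ephrin into the cell that carries it. EphA4 differs from its relatives in that it binds ephrin-B ligands as well, and EphA10 is held to lack kinase activity.

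Total counts were 10.2 to 23.6 M per library and lowest in MGv (10.2 to 13.2 M). Counts were scaled to counts per 1 M counts (CPM) by the trimmed mean of M values, and 8 of the 9 members were among the 15907 genes that passed the filter on low counts; Epha2 did not. The label of thalamic neurons was checked against markers. The 9 pan-neuronal genes summed to 9598 to 12248 CPM and the 8 thalamic relay genes to 2663 to 4417 CPM, against at most 5.15 CPM for cortical neurons, 4.93 for GABAergic neurons, 4.77 for endothelial cells (Cdh5 was at 0 throughout) and 15.5 for microglia. Relay genes differed among the nuclei in both directions. Gbx2, whose locus drives the sort label, had means of 29.4 CPM in dLG, 35.3 in VPM and 304 in MGv. Tcf7l2 and Lhx2 were also highest in MGv, and Lhx9, Rora, Lef1 and Slc17a6 had their lowest means there. Among the pan-neuronal genes, Rbfox3 had means of 159 CPM in dLG, 142 in VPM and 249 in MGv. Snap25 had 310, 475 and 270 CPM in that order. The 5 oligodendrocyte genes summed to 7.30 to 21.6 CPM in dLG, 26.1 to 35.0 in VPM and 65.3 to 74.2 in MGv, nearly all of it Mbp. Without Mbp the sum was at most 4.28 CPM, and Sox10 was at 0 in dLG and MGv. The 7 astrocyte and radial glial genes summed to 57.0 to 140 CPM in dLG, 86.8 to 151 in VPM and 76.2 to 192 in MGv, which overlap. Within that list, in the same order of nuclei, Slc1a3 had means of 6.35, 7.15 and 72.5 CPM and Fabp7 of 65.5, 64.5 and 35.3, while Aldoc had 34.5 in VPM and 18.0 in MGv and was lowest in dLG (adjusted p = 0.00103 for dLG against VPM, edgeR), and Gfap had a mean of at most 0.0335. In 3 libraries (dLG replicate 2, VPM replicate 3 and MGv replicate 1) Hspa8, a chaperone gene, was at 3.05, 4.09 and 5.56 CPM against 159 to 581 in the other 8, and results on EphA receptors are given without them where that changed a call.

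The DNA before the start of a receptor gene is shown for the 4 genes whose level separated MGv from both other nuclei and for Epha8, which ran the other way. RefSeq (GRCm38.p6) gave windows for 9 of 9 members, and the 250 bases before the start are printed 5′ to 3′ on the gene's strand. Capitals mark letters of 4 motifs searched on both strands, namely the GC box GGGCGG, the CCAAT box CCAAT, the TATA box TATAAA and the homeodomain core TAATTA. Adjoining matches overlap only in Epha8, where GC boxes share letters.
Epha3, chr16:63864176-63864425, minus strand: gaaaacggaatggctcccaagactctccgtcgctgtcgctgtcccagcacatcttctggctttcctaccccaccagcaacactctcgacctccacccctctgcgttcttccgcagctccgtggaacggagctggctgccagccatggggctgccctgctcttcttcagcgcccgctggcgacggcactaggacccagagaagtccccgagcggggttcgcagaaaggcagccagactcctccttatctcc
Epha4, chr1:77515089-77515338, minus strand: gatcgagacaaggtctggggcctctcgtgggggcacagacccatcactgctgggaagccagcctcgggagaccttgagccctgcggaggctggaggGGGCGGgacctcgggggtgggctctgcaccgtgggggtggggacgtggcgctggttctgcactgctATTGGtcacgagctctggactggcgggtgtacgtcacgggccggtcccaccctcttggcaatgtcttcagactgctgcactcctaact
Epha5, chr5:84417383-84417632, minus strand: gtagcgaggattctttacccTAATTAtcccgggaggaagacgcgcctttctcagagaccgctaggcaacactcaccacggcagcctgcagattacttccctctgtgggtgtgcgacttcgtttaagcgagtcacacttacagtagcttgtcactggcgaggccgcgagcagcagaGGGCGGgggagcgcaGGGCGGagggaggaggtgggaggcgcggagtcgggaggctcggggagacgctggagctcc
Epha7, chr4:28812881-28813130, plus strand: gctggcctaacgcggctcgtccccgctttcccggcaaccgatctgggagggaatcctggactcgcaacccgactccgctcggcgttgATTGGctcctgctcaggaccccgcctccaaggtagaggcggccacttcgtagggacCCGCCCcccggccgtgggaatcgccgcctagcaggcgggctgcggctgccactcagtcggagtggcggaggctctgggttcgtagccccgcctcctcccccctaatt
Epha8, chr4:136956817-136957066, minus strand: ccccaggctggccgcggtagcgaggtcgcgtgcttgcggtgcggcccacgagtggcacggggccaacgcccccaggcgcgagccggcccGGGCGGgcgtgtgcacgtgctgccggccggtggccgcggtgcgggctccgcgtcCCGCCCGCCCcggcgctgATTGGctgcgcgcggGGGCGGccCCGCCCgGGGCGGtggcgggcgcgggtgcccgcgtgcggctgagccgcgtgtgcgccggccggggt

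None of these windows holds TATAAA, which was found in 12.4% of the 32851 windows of this length. A GC box was present in the windows of Epha4, Epha5, Epha7 and Epha8 (32.7% of all windows) and a CCAAT box in those of Epha4, Epha7 and Epha8 (33.8% of all windows). The Epha5 window was the only one with TAATTA, present in 4.84% of all windows. All were rich in CpG dinucleotides, with 16 in Epha3, 14 in Epha4, 20 in Epha5 and 25 in Epha7, against a median of 6 over all windows. Epha7 has a second window that overlaps the one shown, with 23 CpG. Epha8 stood apart with 46 CpG, 6 GC boxes and 84% G or C, where the median over all windows was 52.4%. The matches are descriptions of the letters and say nothing of which factors bind.

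Epha7 showed the largest difference of the family. Its receptor is also made in truncated forms without a kinase domain, which gene counts do not tell apart from the full form. In dLG the libraries stood at 193, 135, 128 and 168 CPM, in VPM at 225, 239, 173 and 231, and in MGv at 30.0, 30.7 and 33.5. The 3 MGv libraries were close to each other and far below the 8 others, while dLG and VPM overlapped. The level was 4.97-fold higher in dLG than in MGv (log2 fold change 2.31 ± 0.18 SE, adjusted p = 3.28e-06, edgeR's quasi-likelihood test with Benjamini-Hochberg adjustment) and 6.90-fold higher in VPM than in MGv (2.79 ± 0.18, adjusted p = 7.18e-07). By the test for any difference among the nuclei it ranked 29 of the 15907 genes. Between dLG and VPM the log2 difference was -0.47 ± 0.15 (adjusted p = 0.0760 by the same edgeR test). That call was lost when any of dLG replicates 2, 3 and 4 or VPM replicates 1, 2 and 4 was left out, with adjusted p-values up to 0.205. It held without the 3 libraries of low Hspa8 (adjusted p = 0.0419).

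Epha3, whose product binds ephrin-A5 strongly, was graded over the nuclei. The dLG libraries were at 75.8, 86.9, 98.6 and 88.6 CPM, the VPM libraries at 59.5, 66.3, 49.7 and 66.5 and the MGv libraries at 27.9, 25.6 and 25.8. No nucleus overlapped another. Of all genes tested, 3.01% had every dLG library above all others and 6.53% had every MGv library below all others. The share of genes with all nuclei apart was not counted. Epha3 was 1.45-fold higher in dLG than in VPM (log2 fold change 0.53 ± 0.13 SE, adjusted p = 0.0247, edgeR's quasi-likelihood test), and this call held without each of the 11 libraries in turn (adjusted p 0.0322 to 0.0874). It was 3.31-fold higher in dLG than in MGv (1.73 ± 0.15, adjusted p = 8.59e-06) and 2.29-fold higher in VPM than in MGv (1.19 ± 0.15, adjusted p = 1.31e-04).

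Epha4, the receptor that also answers to ephrin-B ligands, had the highest mean level per exon length of the family in every nucleus. It was measured at 225, 140, 204 and 207 CPM in dLG, 252, 239, 150 and 220 in VPM and 97.9, 109 and 94.7 in MGv. All MGv libraries lay below all others. The lowest libraries of dLG and of VPM were those with low Hspa8. Epha4 was 1.93-fold higher in dLG than in MGv (log2 fold change 0.95 ± 0.19 SE, adjusted p = 0.00521, edgeR) and 2.14-fold higher in VPM (1.10 ± 0.20, adjusted p = 0.00227). Between dLG and VPM the difference was -0.15, with a 95% interval of -0.53 to 0.23.

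Epha5, a receptor of forebrain axons, had the same order of means as Epha4 and Epha7. Its dLG libraries were at 101, 66.8, 66.4 and 84.4 CPM, its VPM libraries at 108, 113, 79.0 and 99.3 and its MGv libraries at 37.1, 37.1 and 57.8. MGv replicate 3 was the highest of its group but still below every dLG and VPM library. The gene was 1.81-fold higher in dLG than in MGv (log2 fold change 0.86 ± 0.21 SE, adjusted p = 0.0143, edgeR) and 2.27-fold higher in VPM than in MGv (1.18 ± 0.21, adjusted p = 0.00215). The difference between dLG and VPM was -0.33, with a 95% interval of -0.73 to 0.07.

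**Figure D1:**
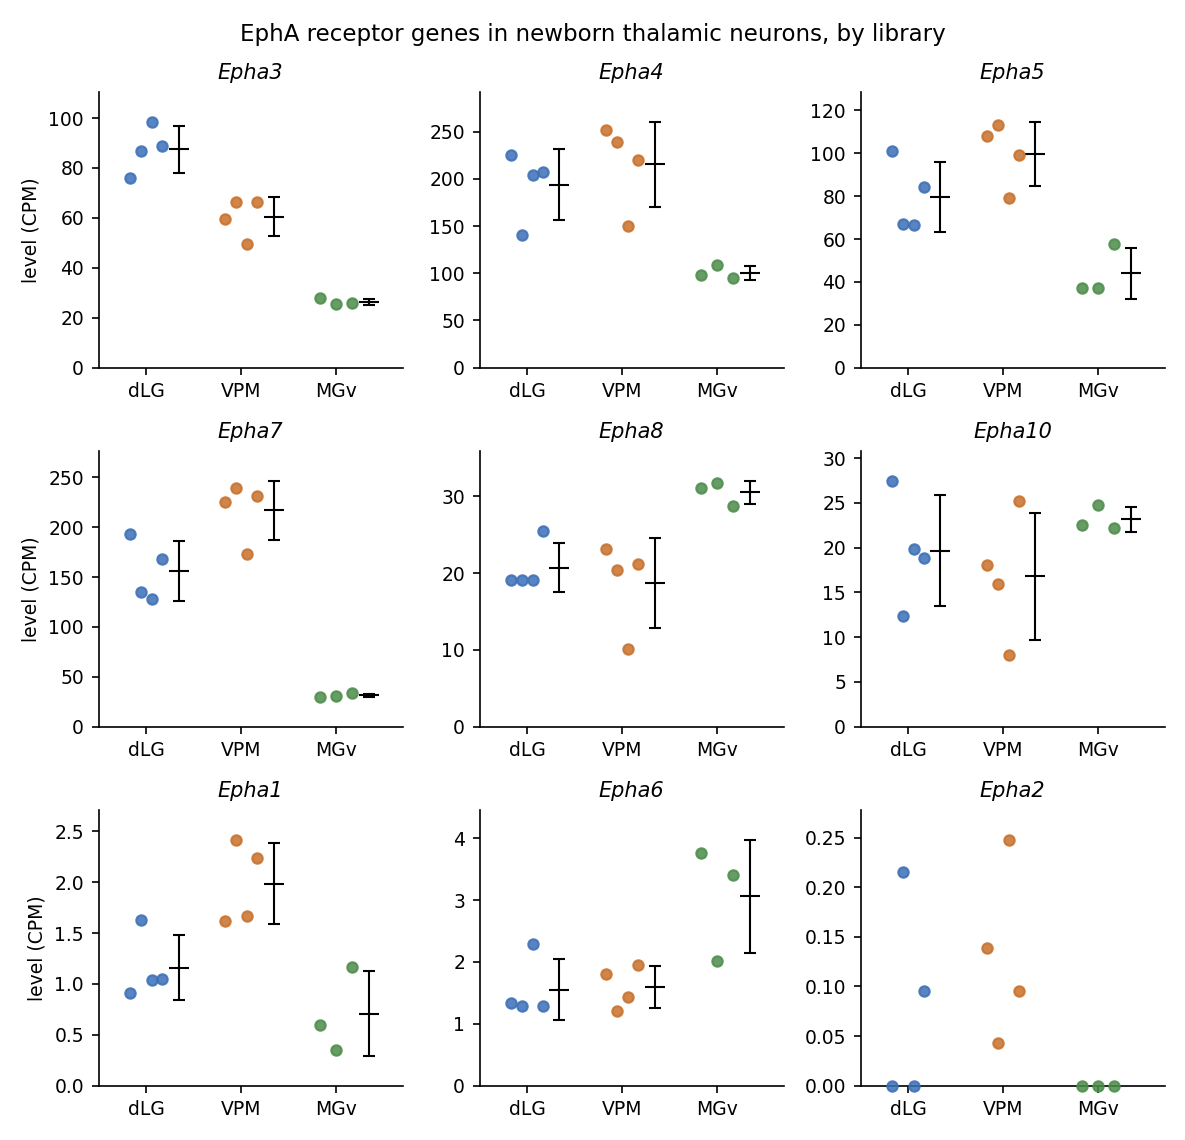
Levels of the 9 EphA receptor genes in CPM (vertical axis, one panel per gene) in the dLG, VPM and MGv libraries (horizontal axis). Points are libraries and bars are the mean ± SD, except for Epha2, which has points only. For Epha3, Epha4, Epha5 and Epha7 every MGv library lies below every dLG and VPM library, and for Epha8 every MGv library lies above them.

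Epha8, a receptor known from the superior colliculus, was highest in MGv. It was measured at 19.1, 19.1, 19.1 and 25.5 CPM in dLG, 23.2, 20.4, 10.1 and 21.2 in VPM and 31.1, 31.7 and 28.8 in MGv. Every MGv library lay above every other library, and the lowest value, VPM replicate 3, came from a library with low Hspa8. Epha8 was 1.63-fold higher in MGv than in VPM (log2 difference of VPM against MGv -0.70 ± 0.24 SE, adjusted p = 0.0704, edgeR). Without the 3 libraries of low Hspa8 that difference was -0.50 (adjusted p = 0.101). It was also not called without VPM replicate 2 (adjusted p = 0.107), MGv replicate 1 (0.161), MGv replicate 2 (0.160) or MGv replicate 3 (0.137). Against dLG the difference was -0.56 (adjusted p = 0.165), with a 95% interval of -1.08 to -0.05. That difference was called in 5 of 25 alternatives, namely without the 3 libraries of low Hspa8 (-0.52, adjusted p = 0.0871, edgeR), with a covariate for them (0.0757), without VPM replicate 3 (0.0249), with only the nuclei compared (0.0616) and by limma voom (0.0484). By the test for any difference among the nuclei Epha8 had an adjusted p of 0.105 (edgeR). It was called there in 9 of the 24 alternatives other than the fit of pairs of nuclei. Without the libraries of low Hspa8 the adjusted p came to lie just under the threshold. With a covariate for those libraries it was 0.0368 (edgeR). Of the 11 fits with a library left out, 1 called it (adjusted p 0.0335 to 0.240, edgeR).

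Epha10, the member without kinase activity, gave no call. Its libraries stood at 27.5, 12.4, 19.9 and 18.9 CPM in dLG, 18.1, 15.9 and 25.2 in VPM replicates 1, 2 and 4, and 22.5, 24.8 and 22.2 in MGv. VPM replicate 3, with low Hspa8, was the lowest of all (129 counts), and the nuclei overlapped. The 95% intervals of the log2 differences were -0.41 to 0.86 between dLG and VPM, -0.93 to 0.45 between dLG and MGv and -1.15 to 0.23 between VPM and MGv, each with the first minus the second. A difference of more than 2-fold was thus outside the interval in the first and second of these comparisons but not in the third.

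The remaining members were scarce. Epha1, known mainly from epithelia, had 4 to 56 counts per library, at 0.913, 1.63, 1.04 and 1.05 CPM in dLG, 1.62, 2.42, 1.67 and 2.24 in VPM and 0.601, 0.351 and 1.17 in MGv. It was 2.83-fold higher in VPM than in MGv (log2 fold change 1.50 ± 0.49 SE, adjusted p = 0.0618, edgeR). The call was lost without the 3 libraries of low Hspa8 (adjusted p = 0.134) and without VPM replicate 2 (0.144), VPM replicate 4 (0.112), MGv replicate 1 (0.160) or MGv replicate 2 (0.174). Its call in the test for any difference among the nuclei (adjusted p = 0.0958, edgeR) was kept in 3 of the 11 fits with a library left out and in 9 of the 23 alternatives other than the fit of pairs of nuclei and the filter that removes the gene. It was lost without the libraries of low Hspa8 (0.129) and reached 0.230 without VPM replicate 2. Of its exonic bases, 6.01% overlap Zyx on the opposite strand, and 5.54% of its 50-base stretches occur in another gene.

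Epha6, a receptor studied in retina and cortex, had 22 to 50 counts per library. It was measured at 1.34, 1.29, 2.29 and 1.29 CPM in dLG, 1.81, 1.21, 1.43 and 1.95 in VPM and 3.76, 2.02 and 3.40 in MGv. MGv lay above VPM in every library, at 2.02 against 1.95 CPM where they came closest, and overlapped dLG. The share of all genes with MGv and VPM apart was not counted. The log2 differences against MGv were -0.98 ± 0.39 SE for dLG (adjusted p = 0.130, edgeR) and -0.93 ± 0.39 for VPM (adjusted p = 0.132). Leaving out MGv replicate 2 brought them to -1.21 (adjusted p = 0.0915) and -1.15 (0.0989), and leaving out dLG replicate 3 brought the difference of dLG to -1.23 (0.0796). Epha2, another mainly epithelial receptor, had 0, 5, 0 and 2 counts in dLG, 3, 1, 4 and 2 in VPM and 0 in each MGv library. The limit that a count of 0 allows was 3 counts, or 0.165 to 0.295 CPM before TMM scaling in the libraries at 0. It covers counting error only. No fold was computed for it.

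Counted over the family, dLG and VPM differed in 2 of the 8 members tested, Epha3 higher in dLG and Epha7 higher in VPM, against 10.7% of all genes tested (4.97% and 5.74% in those directions). Between dLG and MGv 4 of 8 were called, all higher in dLG (16.1% of all genes, 8.61% in that direction and 7.49% in the other). Between VPM and MGv 6 of 8 were called, 5 higher in VPM and Epha8 higher in MGv (19.0% of all genes, 10.4% and 8.56% by direction). The test for any difference among the nuclei called Epha1, Epha3, Epha4, Epha5 and Epha7 (24.2% of all genes). Members lower in MGv than in both other nuclei numbered 4, where 5.22% of all genes were. Epha3 alone was higher in dLG than in both others, as were 2.04% of all genes. All MGv libraries lay below all others for 4 members (6.53% of all genes) and above all others for 1 (5.98%). The median log2 difference of the members was -0.10 for dLG minus VPM, 0.79 for dLG minus MGv and 1.14 for VPM minus MGv, beside 0.00, 0.02 and 0.02 over all genes tested. In these bulk samples, fewer cells that express a receptor and less RNA per cell cannot be told apart.

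**Figure D2:**
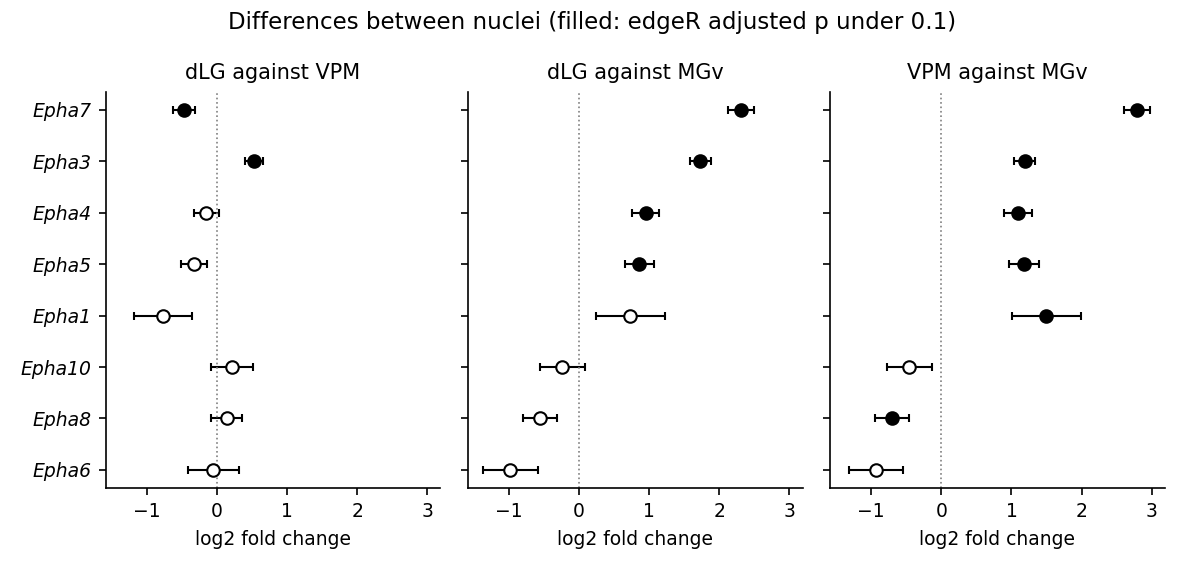
Log2 fold changes (horizontal axis) of the 8 EphA receptors tested, in one panel per pair of nuclei, the first named minus the second. Points are edgeR estimates, bars are ± SE, and filled points have an adjusted p under 0.1. Epha7 reaches 2.79 in VPM against MGv, while Epha6, Epha8 and Epha10 lie below 0 in both comparisons with MGv.

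The higher levels of Epha3, Epha4, Epha5 and Epha7 in dLG and VPM than in MGv remained called with each of the 11 libraries left out, without the 3 libraries of low Hspa8 and with every library thinned to the smallest total. The oligodendrocyte sums and the Slc1a3, Rbfox3 and relay gene levels given above differed between MGv and the other nuclei as well. Their part in the differences of the receptors was not tested.

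Levels of different genes were compared only after division by exon length, in CPM per kb. In dLG the order was Epha4 (24.1 ± 4.62, SD, n = 4), Epha7 (15.8 ± 3.02), Epha3 (10.1 ± 1.07), Epha5 (4.76 ± 0.995), Epha8 (4.39 ± 0.679) and Epha10 (2.73 ± 0.858). Epha4 and Epha7 overlapped in their libraries, and so did Epha5 and Epha8. VPM had the same order, with Epha4 at 26.7 ± 5.65 CPM per kb (SD, n = 4) and Epha7 at 21.9 ± 3.02, overlapping, then Epha3 at 6.96 ± 0.910. From Epha3 down to Epha10 each VPM gene overlapped the next. MGv had another order. Epha4 led at 12.5 ± 0.940 CPM per kb (SD, n = 3), Epha8 came second at 6.48 ± 0.327, and Epha10 (3.22 ± 0.201), Epha7 (3.18 ± 0.190), Epha3 (3.04 ± 0.145) and Epha5 (2.63 ± 0.714) followed without a gap between neighbours. Epha1, Epha6 and Epha2 were the lowest in all nuclei, at or under a mean of 0.578 CPM per kb.

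Summed over the 9 genes, the level was 62.4 ± 8.22 CPM per kb in dLG (SD, n = 4), 68.7 ± 12.2 in VPM (n = 4) and 31.8 ± 0.634 in MGv (n = 3). Epha4 took nearly the same share of that sum everywhere, 38.4% in dLG, 38.7% in VPM and 39.3% in MGv. The share of Epha7 was 25.2% and 32.1% in dLG and VPM and 9.57 to 10.7% in the MGv libraries, and that of Epha8 was 7.09%, 5.66% and, in MGv, 20.4%. Together Epha3, Epha4, Epha5 and Epha7 made up 87.6% ± 0.445 in dLG, 89.8% ± 1.82 in VPM and 67.1% ± 1.01 in MGv. Ratios within a library do not depend on its scaling. The ratio of Epha8 to Epha7 per kb was 0.207 to 0.319 in dLG, 0.123 to 0.216 in VPM and 1.80 to 2.18 in MGv. Per kb, the ranking of these 2 receptors was thus inverted in every MGv library. That inversion depends on the exon lengths, 4713 bases for Epha8 and 9884 for Epha7. In CPM the MGv libraries had 31.1, 31.7 and 28.8 for Epha8 beside 30.0, 30.7 and 33.5 for Epha7. The ratio of Epha3 to Epha7 was 0.447 to 0.873 in dLG and 0.301 to 0.328 in VPM, without overlap. That follows in part from the opposite calls of these 2 receptors between dLG and VPM and is no separate evidence. The ratio of Epha3 to Epha5 was also apart, at 1.44 to 2.86 in dLG and 1.06 to 1.29 in VPM. That of Epha7 to Epha4 overlapped, at 0.513 to 0.787 in dLG and 0.728 to 0.939 in VPM. The share of gene pairs with such ratios apart was not counted.

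**Figure D3:**
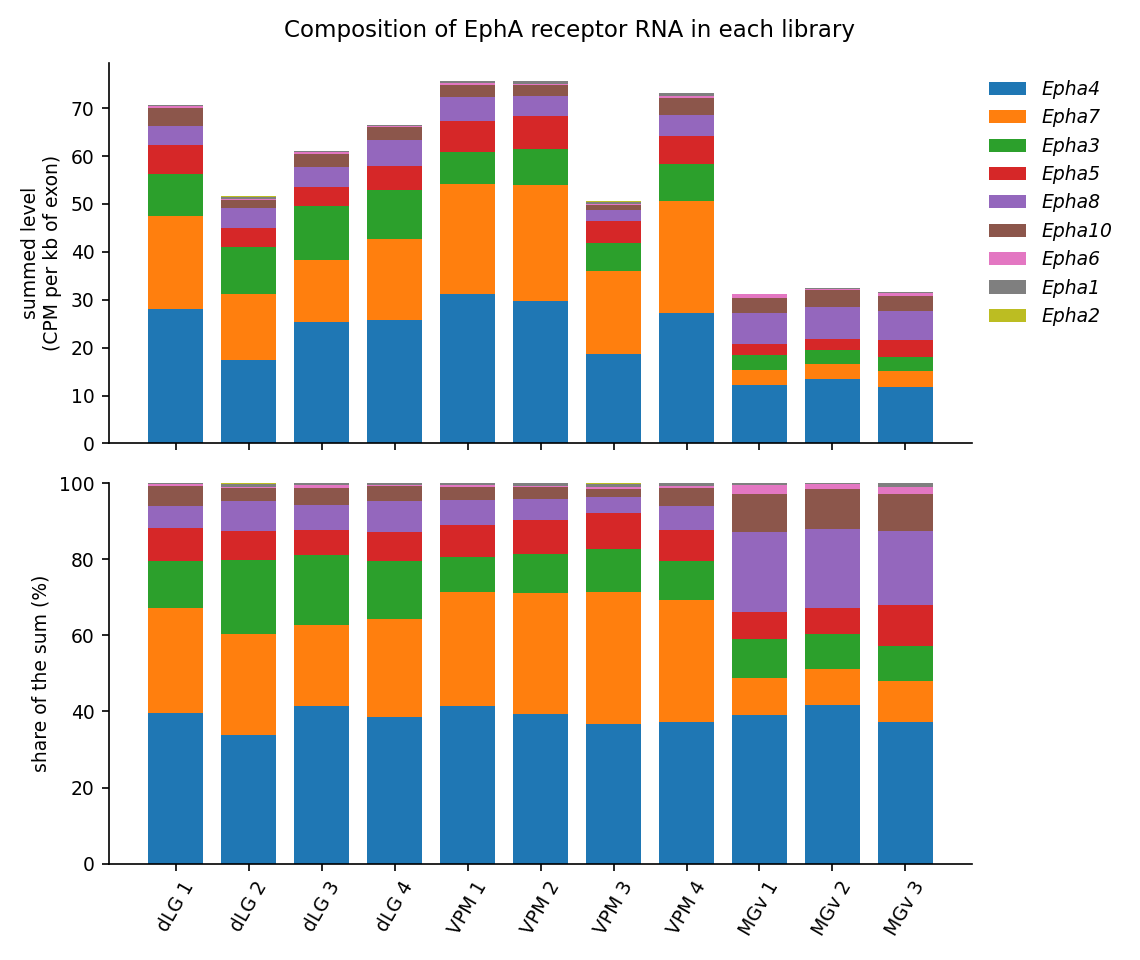
Summed EphA level per library in CPM per kb of exon (top) and each gene's share of it in percent (bottom), one stacked bar per library, with colours for genes. The MGv bars reach 31.2 to 32.5 CPM per kb against 50.5 to 75.6 in the other libraries, and the share of Epha8 in them is 19.3 to 21.2%.

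Across the 11 libraries the log2 CPM of Epha5 and Epha7 had a Pearson correlation of 0.93 and that of Epha4 and Epha7 of 0.92, as descriptions in which the points share nuclei and library quality. With each nucleus's mean removed, Epha5 and Epha7 remained at 0.87, and at 0.81 in the 8 libraries without low Hspa8. Epha4 and Epha7 fell to 0.70 and to 0.24 in those 8. Epha4 and Epha5 went from 0.89 to 0.53 with the means removed and to -0.06 in those 8. Epha3 did not follow the others within nuclei. With Epha7 it went from 0.84 over the 11 libraries to 0.02 with the means removed and to -0.78 in those 8. With Epha4 it went from 0.80 to 0.38 and -0.64, and with Epha5 from 0.69 to -0.06 and -0.61. Epha4 and Epha10 were at 0.85 with the means removed but at 0.05 in those 8 libraries, and Epha8 and Epha10 went from 0.70 to -0.30. The genes most like each of the 5 receptors called in the test for any difference among the nuclei were ranked by the same correlation over the 11 libraries among the 8877 other genes (8878 for Epha1) with a mean of at least 10 CPM. For Epha7 these were Dync1i1 (r = 0.987), Lingo2 (0.986) and Zhx1 (0.985). For Epha3 they were Cnn3 (0.978), Ehd3 (0.972) and Crim1 (0.970), and Cnn3 fell over the nuclei as Epha3 did, from 149 CPM in dLG to 112 in VPM and 50.5 in MGv. Epb41l2 (0.976), Slc23a2 (0.973) and Sipa1l2 (0.970) were nearest to Epha4, and Apbb2 (0.970), Mef2c (0.970) and Cdh7 (0.967) to Epha5. Dok4 (0.930), Slc4a10 (0.911) and Tdrd3 (0.909) were nearest to the scarce Epha1.

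The ligands of these receptors were measured in the same neurons. Of the 5 ephrin-A genes, 1 was called for dLG against VPM, 2 for dLG against MGv and 0 for VPM against MGv. Of all genes tested, 10.7%, 16.1% and 19.0% were called in these comparisons. Efna2 was at 29.8, 23.5, 32.7 and 29.7 CPM in dLG, 17.0, 19.1, 14.7 and 16.8 in VPM and 15.1, 13.7 and 17.9 in MGv. Every dLG library lay above all others, as for 3.01% of all genes. Efna2 was 1.71-fold higher in dLG than in VPM (log2 fold change 0.77 ± 0.16 SE, adjusted p = 0.00948, edgeR) and 1.86-fold higher than in MGv (0.90 ± 0.18, adjusted p = 0.00464). Efna1, singled out after its values were seen, was the other call (dLG against MGv, 2.15 ± 0.78, adjusted p = 0.0987, edgeR) and rested on 0.0878 to 6.66 CPM. That call held in only 1 of the 11 fits with a library left out, when VPM replicate 3 was dropped. Efna3 had nucleus means of 40.6 to 51.0 CPM and Efna5 of 31.6 to 41.6 CPM, and neither was called in a comparison. Efna4 was scarce, at means of 0.456 to 0.958 CPM. For VPM against MGv 0 ephrin-A genes were called by edgeR, 1 (Efna1) had an unadjusted p under 0.05, DESeq2 called 1 and limma voom 0. The 95% interval of the log2 difference was -0.26 to 0.50 for Efna2, -0.08 to 0.74 for Efna3 and -0.63 to 0.15 for Efna5.

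The ephrin-B genes encode the ligands that pass through the membrane and that bind EphA4 besides the EphB receptors. All 3 were called lower in VPM than in MGv, as were 8.56% of all genes tested. Efnb3, a midline ligand for EphA4-bearing axons, was at 184, 212, 175 and 187 CPM in dLG, 152, 132, 103 and 128 in VPM and 255, 242 and 246 in MGv. Every MGv library lay above the rest, as for 5.98% of all genes, and the share with all nuclei apart was not counted. For Efnb3 no nucleus overlapped another. Its log2 difference was -0.94 ± 0.14 SE for VPM against MGv (adjusted p = 4.38e-04, edgeR), 0.56 ± 0.13 for dLG against VPM (adjusted p = 0.0161) and -0.39 ± 0.14 for dLG against MGv (adjusted p = 0.0886). The last of these was lost without any of 8 of the 11 libraries (dLG replicates 1, 3 and 4, VPM replicates 2 and 4 and each MGv replicate), with adjusted p up to 0.209, while without the 3 libraries of low Hspa8 it was 0.0254 (edgeR). Efnb2 was at a mean of 2.99 ± 1.16 CPM in dLG (SD, n = 4), 1.13 ± 0.393 in VPM and 3.99 ± 1.15 in MGv. It was 3.49-fold lower in VPM than in MGv (adjusted p = 0.0113, edgeR) and 2.61-fold lower than in dLG (adjusted p = 0.0457, and 0.142 without dLG replicate 3). Efnb1 was 2.25-fold lower in VPM than in MGv (adjusted p = 0.0121, edgeR). The order of the means over nuclei, MGv first, then dLG, then VPM, was thus shared by the 3 ephrin-B genes, while Epha4 had its lowest mean in MGv. The place of dLG in that order was not called for Efnb1 (adjusted p = 0.266 against VPM and 0.158 against MGv, edgeR). For Efnb2 it was not called against MGv (adjusted p = 0.590, edgeR).

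Among the EphB receptors 4 of 5 were tested, and 1 was called by edgeR, in VPM against MGv. The shares of all genes tested were 10.7% for dLG against VPM, 16.1% for dLG against MGv and 19.0% for VPM against MGv. For dLG against VPM edgeR called 0, with Ephb2 alone at an unadjusted p under 0.05, while DESeq2 called 0 and limma voom 2. For dLG against MGv edgeR called 0, again with Ephb2 alone under 0.05, and DESeq2 and limma voom called 1 each. Ephb2 stood at 46.5, 42.7, 36.8 and 52.6 CPM in dLG, 35.0, 34.7, 22.5 and 37.4 in VPM and 57.0, 57.8 and 71.0 in MGv. Every MGv library was above every other, as for 5.98% of all genes. The gene was 1.91-fold lower in VPM than in MGv (log2 difference -0.93 ± 0.19 SE, adjusted p = 0.00476, edgeR). Ephb4 stayed under 1 CPM in every library and was not tested.

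**Figure D4:**
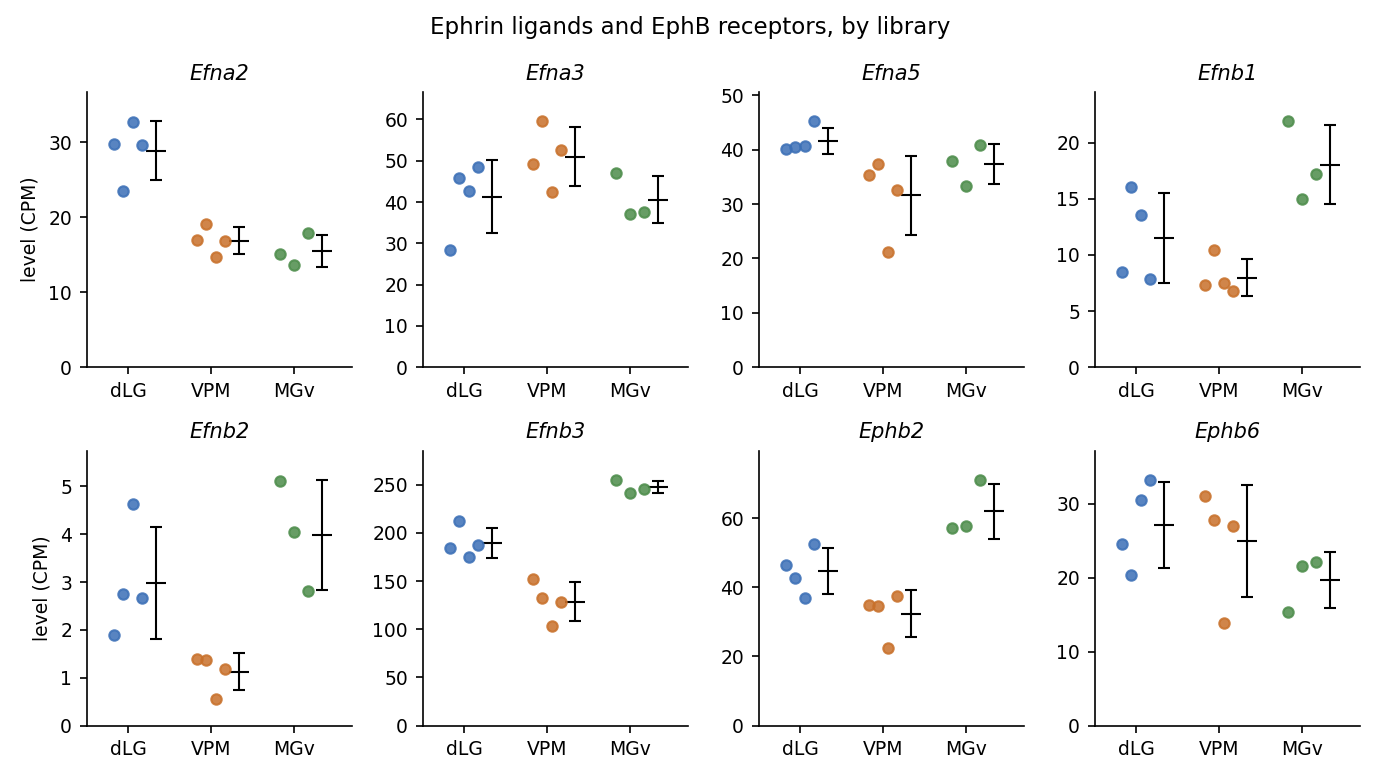
Levels of Efna2, Efna3, Efna5, Efnb1, Efnb2, Efnb3, Ephb2 and Ephb6 in CPM (vertical axis, one panel per gene) in the dLG, VPM and MGv libraries (horizontal axis). Points are libraries and bars are the mean ± SD. Efna2 is highest in dLG, at 23.5 to 32.7 CPM, and Efnb3 is lowest in VPM, at 103 to 152 CPM.

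A list was made of 37 genes whose products act with or downstream of EphA receptors and ephrins, all of them tested. It gave 10 calls for dLG against VPM, 10 for dLG against MGv and 9 for VPM against MGv. Of all genes tested, 10.7%, 16.1% and 19.0% were called in these comparisons. The median log2 difference of the list was -0.06, -0.07 and -0.08, beside 0.00, 0.02 and 0.02 over all genes tested. By direction, 5 were higher and 5 lower in dLG than in VPM (4.97% and 5.74% of all genes). In dLG against MGv, 4 were higher and 6 lower in dLG (8.61% and 7.49%). In VPM against MGv, 5 were higher and 4 lower in VPM (10.4% and 8.56%). Without MGv replicate 3 the calls for dLG against MGv were 6. Ngef encodes ephexin-1, an exchange factor that binds EphA4. It averaged 4.91 ± 1.26 CPM in dLG (SD, n = 4), 1.67 ± 0.966 in VPM (n = 4) and 19.0 ± 0.303 in MGv (n = 3). The nuclei did not overlap, and every MGv library lay above the rest, as for 5.98% of all genes. The share with all nuclei apart was not counted. Ngef was 11.2-fold lower in VPM than in MGv (log2 difference -3.49 ± 0.37 SE, adjusted p = 3.50e-05, edgeR). Ngfr encodes the p75 neurotrophin receptor, a partner of ephrin-A in reverse signalling. It averaged 7.40 ± 3.75 CPM in VPM against 1.37 ± 0.374 in dLG and 1.15 ± 0.373 in MGv (adjusted p = 0.00250 and 0.00257, edgeR).

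Vav3, a guanine nucleotide exchange factor, averaged 56.9 ± 18.1 CPM in dLG (SD, n = 4) and was 2.06-fold higher there than in VPM (adjusted p = 0.0117, edgeR) and 2.40-fold higher than in MGv (adjusted p = 0.00442). Tiam1, an exchange factor for Rac, was 2.60-fold lower in dLG than in MGv (adjusted p = 0.0335, edgeR, and 0.111 without MGv replicate 3). Nck2, an adaptor that binds phosphorylated receptors, and Yes1, a Src family kinase, were lower in MGv than in both other nuclei. For Nck2 the mean was 4.38 CPM in MGv, 2.29-fold lower than in dLG and 2.13-fold lower than in VPM (adjusted p = 0.00353 and 0.00680, edgeR). For Yes1 they were 9.45, 11.7 and 5.32 CPM (adjusted p = 0.0415 and 0.00777 against MGv, edgeR). The first of these was lost without MGv replicate 1 or MGv replicate 3, with adjusted p up to 0.144.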

How the data were processed

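RNA-seq was performed on 11 libraries of sorted thalamic neurons (SMARTer amplification, single-end reads of 50 bases). The authors trimmed the reads with Trim Galore 0.6.1 and cutadapt 2.3, aligned them with STAR to mouse GRCm38 and counted reads per Ensembl gene with featureCounts (Subread 1.6.4), according to the labels and the methods of the study. The deposited files hold raw counts of reads for each gene, not normalized. The strand setting and the treatment of reads with several alignments are not given in the sources used here.

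Counts were tested with edgeR 4.0.16 (R 4.3.3; filterByExpr, TMM scaling, quasi-likelihood test, 3 group means, all 11 libraries), two-sided, with Benjamini-Hochberg adjustment over 15907 genes and calls at an adjusted p under 0.1. The common biological coefficient of variation was 28.2%. Each SE was derived from the F statistic of its contrast, and a prior count of 2 entered the log2 CPM. Exon lengths came from GENCODE M21 (GRCm38), later than the annotation used for counting, and count every base in any annotated exon of a gene. Levels of whole genes do not separate isoforms.

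The members and gene lists were chosen with earlier results of these data known. Named genes are the 9 members, up to 6 genes of each other list past the any-nucleus test with the largest pairwise fold change, and the 3 genes of at least 10 mean CPM best correlated with each member that passed that test. Efna1, Efna3, Efna4, Efna5, Ephb1, Ephb4 and Ephb6 did not pass it, and they and the marker genes named were chosen after their values were seen. The 25 alternatives included DESeq2 1.42.0 and limma 3.58.1 (voom). On simulated dLG and VPM counts for 15524 genes, 100 genes were changed 2-fold and 100 were changed 4-fold. Of these, 64.0% of 2-fold and 91.0% of 4-fold changes were recovered, and 8.82% of calls were false. The comparisons with MGv were not simulated. No pair of libraries of the same nucleus agreed within sampling noise (chi-square per degree of freedom at least 12.8). Depth was 10.2 to 23.6 M counts, and 3 counts equal 0.127 to 0.295 CPM before TMM scaling.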

Additional observations from a re-analysis of the deposited data

Results flagged for a closer look

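Within the groups of 4 libraries, a library was singled out where its gap to its nearest neighbour exceeded Dixon's 95% critical value, and 6 of 40 sets of the Eph and ephrin genes did so, 2 of them EphA receptors. Chance flags about 1 in 20 such sets. Epha6 was at 2.29 CPM in dLG replicate 3, against 1.29 to 1.34 in the other dLG libraries. Epha8 was at 25.5 CPM in dLG replicate 4, while the other 3 lay at 19.1. Efna1 was at 6.14 CPM in VPM replicate 3, a library with low Hspa8, against 1.33 to 1.43 in the rest of that group. In the same library Efna4 was at 0.682 CPM, where the others had 1.04 to 1.07. Efna5 was at 45.2 CPM in dLG replicate 4 against 40.1 to 40.7. Ephb1 was at 7.13 CPM in dLG replicate 2, also low in Hspa8, against 3.27 to 3.65.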

How the results depend on the processing

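No called difference of an EphA receptor changed direction under the 25 alternatives. The calls of Epha3 and Epha7 against MGv held in all of them, and those of Epha4 and Epha5 in all but an absolute log2 fold change over 1 in dLG against MGv (0.95 and 0.86). The 2 EphA receptors called for dLG against VPM became 1 with total counts in place of TMM (Epha7 lost, adjusted p = 0.223 by edgeR) or at an adjusted p under 0.05, and 0 at an absolute log2 fold change over 1, which left 2 of 4 for dLG against MGv. Under that last setting the other ephrin system genes gave 1, 1, 2 and 2 calls (dLG against VPM, dLG against MGv, VPM against MGv, any), the partners 3, 4, 4 and 6, and all genes 922, 1552, 1559 and 2294. Limma voom gave 8 other ephrin system genes for dLG against VPM, 5 for dLG against MGv and 8 for any difference, and 4414 and 6181 genes for dLG against VPM and any difference. At an adjusted p under 0.05, 1 other ephrin system gene remained for dLG against MGv. Without the 3 libraries of low Hspa8, 2618 genes were called for dLG against VPM. The causes of these shifts in counts were not tested.

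With 1 library left out at a time, calls ranged as follows for dLG against VPM, dLG against MGv, VPM against MGv and any difference. EphA receptors gave 1 to 2, 4 to 5, 4 to 6 and 4 to 6. Other ephrin system genes gave 2 to 3, 1 to 4, 4 to 4 and 4 to 6, with 1 for dLG against MGv (Efna2) without any of dLG replicates 1, 3 and 4, VPM replicates 2 and 4 and the 3 MGv replicates. Partners gave 7 to 12, 6 to 12, 7 to 11 and 12 to 17, and all genes 1093 to 2223, 1886 to 3300, 2024 to 3235 and 3001 to 4649, with the fewest for dLG against VPM without VPM replicate 1 (1101) or 2 (1093). Epha6 was called against MGv by DESeq2 (adjusted p = 0.0864 for dLG and 0.0988 for VPM) and with at least 10 counts in every library (0.0793 and 0.0824), but not by edgeR with the usual filter.

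Libraries with the same replicate number did not as a rule deviate together. Over 10 same-numbered pairs the correlation of their deviations was -0.20 to 0.48, and 2 pairs exceeded 0.1. These were dLG and VPM replicate 1 (0.18) and dLG and VPM replicate 4 (0.48). Pairs of unlike number lay at -0.31 to 0.27, so the replicate 4 pair was above all of them. With the replicate number as a block, EphA calls were 2, 4, 5 and 5 for dLG against VPM, dLG against MGv, VPM against MGv and any difference. The block lost Epha1 for VPM against MGv (adjusted p = 0.122 by edgeR) and for any difference (0.180), where it gained Epha8 (0.0730). It gave 1464, 2169, 2695 and 3318 calls over all genes. Scarce members such as Epha1, Epha2 and Epha6, at 0 to 56 counts, are limited by depth.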
